A study of Homo sapiens with 4 samples.

Results

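Enzymes that remove superoxide and peroxides were followed through 4 single-cell libraries of BEAS-2B cells. The genes were SOD1, SOD2, CAT, GPX1, GPX4, PRDX2, PRDX3, PRDX4, PRDX5 and PRDX6, taken by symbol from the deposited list of 36601 genes. Of these 10 symbols, 9 were on the list and all 9 passed the minimum of 10 CPM (UMIs of the gene per 1000000 UMIs of the library, averaged over the 4 libraries; a UMI is a tag that counts 1 captured RNA molecule) that 8507 genes passed. GPX1 was not on the list and is not analysed here. BEAS-2B is a human bronchial epithelial line immortalized with viral genes. The cells were left without irradiation (control) or received 10 mGy, 100 mGy or 1 Gy of gamma rays from a Cs-137 source, and no other agent or allele separates the groups in the labels. The study asked whether the uneven energy that low doses deposit among nuclei is matched by uneven gene expression among cells. Every dose had 1 library, so a dose effect and a library effect cannot be told apart, no test between doses was possible, and the 95% intervals given with the values are exact intervals for the counting error of UMIs only.

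Superoxide dismutases turn superoxide into hydrogen peroxide, SOD1 with copper and zinc mainly in the cytosol and SOD2 with manganese in the mitochondrial matrix. Hydrogen peroxide is then removed by catalase (CAT) in peroxisomes, by glutathione peroxidases, which draw electrons from glutathione, and by peroxiredoxins, most of which draw them from thioredoxin. Ionizing radiation splits water and raises these oxygen species within cells, and airway epithelium also meets them from inhaled air.

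The libraries held 11111 to 21514 barcodes and 211752280 to 285806026 UMIs, so that even CAT, the enzyme with the fewest counts, rested on 4892 to 6473 UMIs per library. Median UMIs per barcode ran from 12417 to 19771, and the control was the deepest per barcode. A group of shallow barcodes, with fewer UMIs than the library median divided by 3, were 19.6%, 41.4%, 27.4% and 25.4% of the control, 10 mGy, 100 mGy and 1 Gy libraries, and held 2.16% to 5.40% of UMIs. Ribosomal protein genes took 14%, 20%, 22% and 14% of UMIs in the same order. Between 76 and 134 barcode sequences were shared by a pair of libraries, at most 0.864% of the smaller library. Of 8 epithelial markers, KRT7, KRT8 and KRT18 passed the minimum, KRT5, KRT14 and CDH1 stayed under 1 CPM in every library, and the summed level was 1017 to 1156 CPM. The mesenchymal markers VIM, FN1 and CDH2 all passed, with a sum of 3135 to 4431 CPM. Fibroblast, leukocyte, endothelial and red cell lists summed to at most 25.8, 10.9, 0.679 and 0.139 CPM, with COL1A1 and CD68 carrying most of the fibroblast and leukocyte sums.

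The stretches before the transcription starts of 4 of the genes are shown because these genes stand for the 3 patterns described further on. PRDX5 and GPX4 had the largest ratios to the control after 10 mGy, SOD2 was raised after 10 mGy and not after 100 mGy, and CAT hardly moved. Each sequence is the 250 bases before the RefSeq start on GRCh38.p14, in the direction of transcription. They lie at chr11:64317871-64318120 on the plus strand (PRDX5), chr19:1103744-1103993 on the plus strand (GPX4), chr6:159693242-159693491 on the minus strand (SOD2) and chr11:34438684-34438933 on the plus strand (CAT). Capitals mark GC boxes (GGGCGG, read as CCGCCC on the opposite strand) and CCAAT boxes (CCAAT, read as ATTGG), with overlapping matches counted separately.
PRDX5: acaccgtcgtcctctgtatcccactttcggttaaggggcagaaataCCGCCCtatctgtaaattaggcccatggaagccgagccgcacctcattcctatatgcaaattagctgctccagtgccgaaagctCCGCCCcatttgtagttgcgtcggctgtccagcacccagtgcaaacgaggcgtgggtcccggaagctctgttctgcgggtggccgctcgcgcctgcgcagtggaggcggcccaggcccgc
GPX4: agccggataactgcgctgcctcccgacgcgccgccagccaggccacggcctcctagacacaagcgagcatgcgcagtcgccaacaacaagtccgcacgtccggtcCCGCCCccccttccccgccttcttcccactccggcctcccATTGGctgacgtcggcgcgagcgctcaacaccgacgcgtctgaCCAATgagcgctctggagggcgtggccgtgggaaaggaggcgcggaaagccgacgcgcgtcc
SOD2: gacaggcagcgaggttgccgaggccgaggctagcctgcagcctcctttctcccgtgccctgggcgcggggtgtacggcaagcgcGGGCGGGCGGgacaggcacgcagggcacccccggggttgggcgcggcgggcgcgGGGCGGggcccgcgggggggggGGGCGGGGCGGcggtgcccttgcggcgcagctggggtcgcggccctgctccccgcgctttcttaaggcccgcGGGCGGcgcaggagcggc
CAT: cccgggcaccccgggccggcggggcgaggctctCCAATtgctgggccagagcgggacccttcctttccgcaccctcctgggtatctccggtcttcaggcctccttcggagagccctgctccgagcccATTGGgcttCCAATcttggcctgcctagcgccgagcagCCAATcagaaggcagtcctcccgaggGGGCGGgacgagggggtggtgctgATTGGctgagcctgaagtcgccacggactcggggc
PRDX5 had 2 GC boxes, GPX4 had 1 GC box and 2 CCAAT boxes, SOD2 had 6 GC boxes, and CAT had 1 GC box and 5 CCAAT boxes. RefSeq promoters were found for 7 of the 9 measured genes, and all 7 held a GC box, which 42.3% of 27305 promoters of this length also held. G and C made up 60.4% to 80.8% of the bases of the 7, beside a median of 58% over all promoters. Promoters of like G and C content were not compared. The CCAAT box was in 2 of the 7, GPX4 and CAT, and in 33.0% of all promoters. The antioxidant response element (TGACNNNGC), the TATA box (TATAAA) and the kappaB consensus were each searched on both strands and had no exact match in the 7 windows, against 11.0%, 11.1% and 6.60% of all promoters. A match is a run of letters and not a measured binding site.

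Transcripts of the 9 enzymes together made up 1432 CPM in the control, 2078 after 10 mGy, 2016 after 100 mGy and 1454 after 1 Gy. The 2 low-dose libraries were thus 1.45-fold (1.44 to 1.46) and 1.41-fold (1.40 to 1.41) above the control, while the 1 Gy library was at 1.02-fold (1.01 to 1.02). Past a threshold of 1.2-fold, 8 of 9 enzymes were higher than the control after 10 mGy, where 15.4% of all genes passed upwards and 53% downwards. At 100 mGy 7 of 9 were higher, against 14% of all genes upwards and 58.9% downwards. At 1 Gy none of the 9 passed in either direction, as was the case for most genes, of which 1.28% passed upwards and 0.846% downwards. No enzyme was more than 1.2-fold lower than the control at any dose. The median log2 ratio of the enzymes was 0.51 after 10 mGy, 0.54 after 100 mGy and -0.00079 after 1 Gy, beside -0.30, -0.38 and 0.02 over all genes. Set against the median gene (median ratio scaling) the enzymes' median became 0.81 and 0.93 at the low doses, and 9 of 9 then lay above the control at both. That scale puts the median of all genes near 0 (-0.0029 and 0.00047). The share of all genes above the control on it is not given here. In unscaled UMIs per barcode only 3 of 9 lay above the control after 10 mGy (GPX4, PRDX2 and PRDX5) and 2 after 100 mGy (PRDX2 and PRDX5), in libraries whose barcodes held fewer UMIs of all genes. In 7 of 9 enzymes both low-dose libraries lay above both the control and the 1 Gy library, a pattern found in 20.7% of all genes, and the exceptions were SOD2 and CAT.

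**Figure D1:**
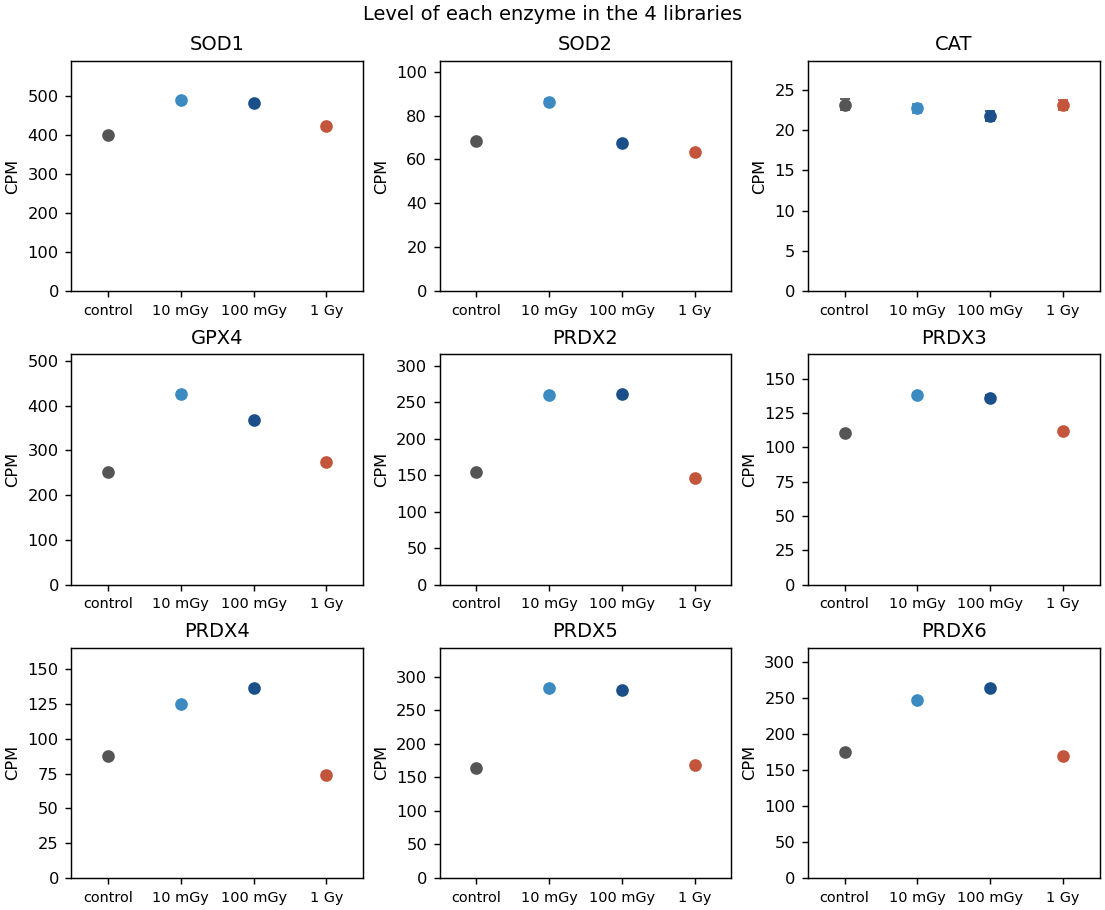
Level of each enzyme (CPM, vertical axes starting at 0) in the control, 10 mGy, 100 mGy and 1 Gy libraries, 1 point per library, with bars for the 95% counting interval, which are mostly smaller than the points. PRDX2, PRDX4, PRDX5, PRDX6, GPX4, PRDX3 and SOD1 are higher in both low-dose libraries, SOD2 is highest after 10 mGy (86.2 CPM), and CAT stays between 21.7 and 23.1 CPM.

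SOD1 (ENSG00000142168, chromosome 21, 31659622 to 31668931, plus strand; positions here and below are those of GENCODE 29 on GRCh38) was counted at 399 CPM in the control, 488 after 10 mGy, 481 after 100 mGy and 423 after 1 Gy. Both low-dose libraries were above the other pair, by 1.22-fold (1.21 to 1.23) and 1.21-fold (1.195 to 1.216) over the control, and 1 Gy was 1.06-fold (1.05 to 1.07) above it. These ratios sat just past the 1.2-fold threshold on the CPM scale. Against genes of like exonic length the log2 ratio of SOD1 turned to -0.053 after 10 mGy and -0.067 after 100 mGy. CCS, the chaperone that loads copper into SOD1, was counted at 22.2, 36.2, 28.7 and 20.6 CPM in the same order of libraries.

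SOD2 (ENSG00000112096, chromosome 6, 159669057 to 159745186, minus strand) did not follow SOD1. Its level was 68.3 CPM in the control, 86.2 after 10 mGy, 67.4 after 100 mGy and 63.2 after 1 Gy. Only the 10 mGy library stood above the rest, 1.26-fold (1.24 to 1.29) over the control and 1.36-fold (1.34 to 1.39) over 1 Gy. The 100 mGy library was at 0.987-fold (0.966 to 1.01) of the control and 0.782-fold (0.766 to 0.797) of the 10 mGy library, and 1 Gy was at 0.926-fold (0.904 to 0.948) of the control. Of all genes, 5.91% had a lower ratio of 100 mGy to 10 mGy than SOD2. The 100 mGy log2 ratio of SOD2 to the control, -0.018 on the CPM scale, changed direction to 0.37 with median ratio scaling and to 0.10 with CPM that left out ribosomal protein and mitochondrially encoded genes. Annotated SOD2 exons share 845 bases on the same strand with a second gene of that symbol, which was not on the list, so reads in these bases may not be SOD2's alone. SOD2 exons also share 298 bases with WTAP, which lies on the opposite strand.

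CAT (ENSG00000121691, chromosome 11, 34438925 to 34472062, plus strand), the peroxisomal catalase, was counted at 23.1 CPM in the control, 22.6 after 10 mGy, 21.7 after 100 mGy and 23.1 after 1 Gy. The ratio to the control was 0.980 (0.944 to 1.02) after 10 mGy, 0.939 (0.903 to 0.976) after 100 mGy and 0.999 (0.960 to 1.04) after 1 Gy. CAT was thus level with the control after 10 mGy and after 1 Gy within counting error, and slightly below it after 100 mGy. Because most genes were lower in the low-dose libraries, CAT lay 1.21-fold and 1.23-fold above the median gene there, and its direction turned upwards with median ratio scaling (log2 ratio 0.27 for 10 mGy and 0.29 for 100 mGy).

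GPX4 (ENSG00000167468, chromosome 19, 1103926 to 1106791, plus strand) reduces lipid hydroperoxides in membranes with glutathione and contains selenocysteine. It was counted at 252 CPM in the control, 427 after 10 mGy, 368 after 100 mGy and 275 after 1 Gy. The 4 libraries were all separated by more than counting error, in the order 10 mGy, 100 mGy, 1 Gy and control. The ratio to the control was 1.69 (1.67 to 1.71) after 10 mGy, above that of 98.0% of all genes, and it was 1.46 (1.44 to 1.47) after 100 mGy and 1.09 (1.08 to 1.10) after 1 Gy. Without scaling, GPX4 had 4.83 UMIs per barcode in the control, 5.67 after 10 mGy, 4.51 after 100 mGy and 3.75 after 1 Gy, so its excess after 100 mGy is an excess in share and not in UMIs per barcode. Total UMIs per barcode were 19153, 13285, 12254 and 13653 in the same order.

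PRDX2 (ENSG00000167815, chromosome 19, 12796820 to 12801859, minus strand), a cytosolic peroxiredoxin, was counted at 154 CPM in the control, 260 after 10 mGy, 261 after 100 mGy and 146 after 1 Gy. The low-dose libraries were level with each other, with a ratio of 1.01 (0.995 to 1.02), and stood 1.68-fold (1.66 to 1.71) and 1.69-fold (1.67 to 1.72) above the control. At 1 Gy PRDX2 was at 0.946-fold (0.932 to 0.961). Its exons share 296 bases with the antisense gene AC018761.2.

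PRDX5 (ENSG00000126432, chromosome 11, 64318088 to 64321811, plus strand), found in mitochondria, peroxisomes and cytosol, was counted at 163 CPM in the control, 284 after 10 mGy, 281 after 100 mGy and 169 after 1 Gy. It had the largest ratios among the 9 enzymes at both low doses, 1.74 (1.72 to 1.76) and 1.72 (1.70 to 1.74), above those of 98.4% and 97.8% of all genes. At 1 Gy the ratio was 1.04 (1.02 to 1.05). With 893 exonic bases PRDX5 is also the shortest of the 9 genes.

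PRDX3 (ENSG00000165672, chromosome 10, 119167703 to 119178833, minus strand), the mitochondrial peroxiredoxin that works with thioredoxin 2, was counted at 110 CPM in the control, 138 after 10 mGy, 136 after 100 mGy and 112 after 1 Gy. Both low-dose libraries were above the other pair, by a smaller ratio than PRDX5: 1.25 (1.23 to 1.28) and 1.24 (1.22 to 1.26) to the control. The 1 Gy library was level with the control, at 1.02 (0.998 to 1.03).

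PRDX4 (ENSG00000123131, chromosome X, 23664262 to 23686399, plus strand), the peroxiredoxin of the endoplasmic reticulum, was counted at 87.9 CPM in the control, 125 after 10 mGy, 136 after 100 mGy and 74.1 after 1 Gy. Here 100 mGy was the highest library, 1.09-fold (1.08 to 1.11) above 10 mGy, and 1 Gy the lowest. The ratios to the control were 1.42 (1.40 to 1.45), 1.55 (1.52 to 1.58) and 0.844 (0.826 to 0.862). The 1 Gy ratio of PRDX4 was the lowest of the 9 enzymes, and 1.14% of all genes had a lower ratio at this dose. It missed the 1.2-fold threshold narrowly and passed it on the median ratio scale (log2 ratio -0.28).

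PRDX6 (ENSG00000117592, chromosome 1, 173477266 to 173488807, plus strand), which takes electrons from glutathione and also acts on phospholipids, was counted at 174 CPM in the control, 248 after 10 mGy, 264 after 100 mGy and 169 after 1 Gy. It was likewise highest after 100 mGy, 1.07-fold (1.06 to 1.08) above 10 mGy. The ratios to the control were 1.42 (1.40 to 1.44), 1.52 (1.497 to 1.536) and 0.971 (0.957 to 0.985). Summed, the 5 peroxiredoxins measured here were at 690 CPM in the control, 1055 after 10 mGy, 1079 after 100 mGy and 670 after 1 Gy, whereas the 2 superoxide dismutases were at 467, 574, 548 and 486 CPM.

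**Figure D2:**
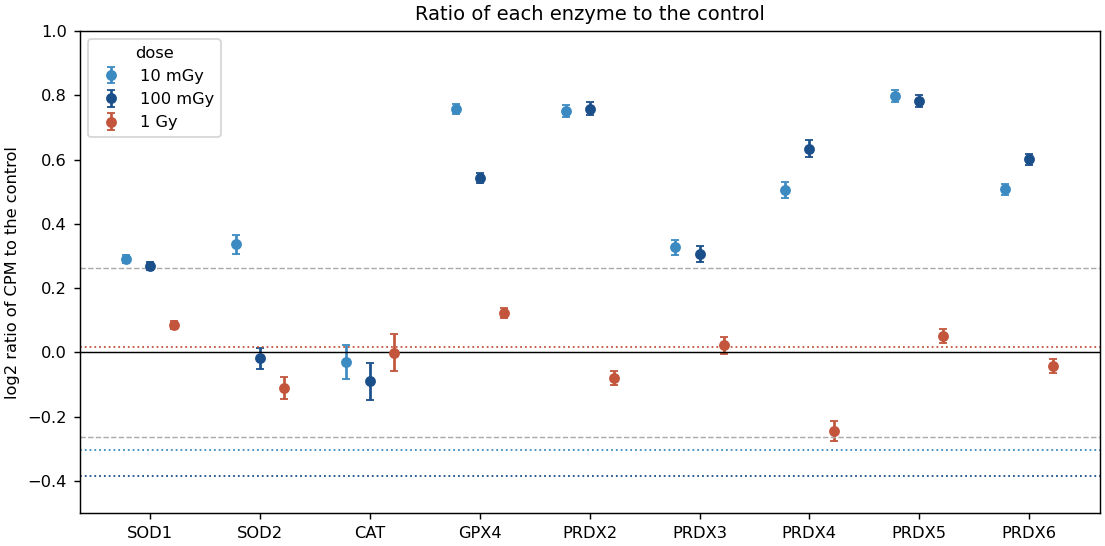
Log2 ratio of each enzyme's CPM to the control after 10 mGy, 100 mGy and 1 Gy, with bars for the 95% counting interval, dashed lines at 1.2-fold and dotted lines at the median of all 8507 genes for each dose (-0.30, -0.38 and 0.02). The 1 Gy points lie near 0 except PRDX4 (-0.25), and all low-dose points lie above the dotted line of their dose.

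The control library enters all ratios to the control, so the libraries were also compared in pairs that share none. Against the 1 Gy library, the 100 mGy ratio was 1.14 for SOD1, 1.34 for GPX4, 1.22 for PRDX3, 1.56 for PRDX6, 1.66 for PRDX5, 1.79 for PRDX2 and 1.84 for PRDX4. The median log2 ratio of all genes in this pair was -0.42. The 10 mGy library lay above the control in all 7, and also in SOD2. These 7 are the enzymes already picked for having both low-dose libraries above the control and 1 Gy. Their direction in both pairs follows from that pick and is no separate finding. SOD2 was at 1.07-fold (1.04 to 1.09) and CAT at 0.940-fold (0.904 to 0.977) in 100 mGy against 1 Gy. Both comparisons put the peroxiredoxins and GPX4 above the superoxide dismutases and CAT, except that PRDX3 after 10 mGy (1.25) was no higher than SOD2 (1.26).

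The low-dose ratios ran with gene length across all genes, and most of the enzymes are short. Exonic length, the union of annotated exons, had a median of 2093 bases over the 9 enzymes and of 5323.5 over all genes tested. Across 8500 genes, Spearman's rho between length and the log2 ratio was -0.55 after 10 mGy, -0.57 after 100 mGy and 0.03 after 1 Gy, as a description over genes that share their libraries. Genes were split by length into 10 bins. The bin of the shortest genes, which holds SOD1, GPX4, PRDX2, PRDX4 and PRDX5, had a median log2 ratio of 0.34 at both low doses. Against the median of its own bin, the log2 ratio after 10 mGy was 0.45 for PRDX5, 0.41 for GPX4, 0.41 for PRDX2, 0.43 for PRDX3, 0.46 for PRDX6 and 0.16 for PRDX4, and after 100 mGy it was 0.45, 0.21, 0.42, 0.46, 0.59 and 0.30. These 6 stayed above genes of like length, with PRDX4 after 10 mGy and GPX4 after 100 mGy under 1.2-fold, and SOD1 did not. SOD2, with 16493 exonic bases in the bin of the longest genes (medians -0.68 and -0.80), was 1.02 and 0.79 above its bin, and CAT was 0.07 above its bin at both doses. A union of exons can exceed the length of any single transcript. The annotated span of SOD2 reaches 159745186, upstream of the promoter shown (159693242 to 159693491). Its bin may therefore be too long for its transcripts, and its excess over that bin is uncertain. The part of length, or of the ribosomal protein share that moved with it, in these ratios was not tested.

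**Figure D3:**
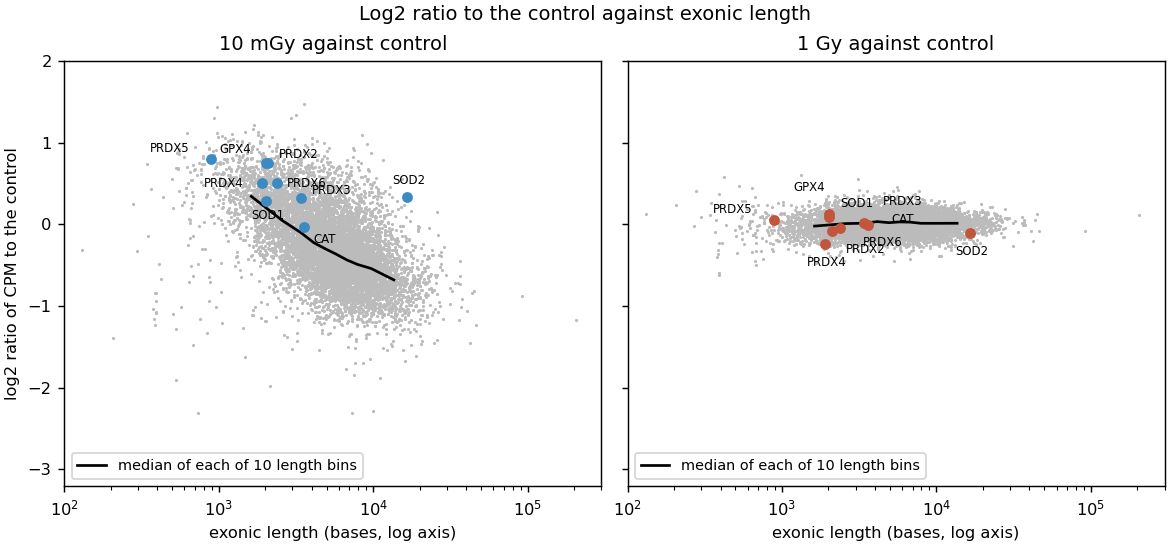
Log2 ratio to the control against exonic length (bases, log axis) for 8500 genes (grey), after 10 mGy and after 1 Gy, with the median of each of 10 length bins (black line) and the 9 enzymes (coloured). At 10 mGy the line falls from 0.34 to -0.68, SOD2, placed by the union of its annotated exons, lies far above it and SOD1 close to it, whereas after 1 Gy the line is flat.

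The enzymes were also counted cell by cell. Barcodes with at least 5000 UMIs were thinned to exactly 5000 UMIs, which kept 9060 of the control, 12561 after 10 mGy, 14271 after 100 mGy and 11530 after 1 Gy, and left out 2051, 8953, 5679 and 3980. The median barcode then held 7 UMIs of the 9 enzymes together in the control, 10 after 10 mGy, 10 after 100 mGy and 7 after 1 Gy. The middle 80% of barcodes spanned 4 to 11 UMIs in the control and after 1 Gy, and 6 to 15 at both low doses. Barcodes above the control median of 7 made up 42.2% of the control, 79.1% after 10 mGy, 76.8% after 100 mGy and 43.9% after 1 Gy. The distribution had a single peak in every library, and the libraries overlapped widely.

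**Figure D4:**
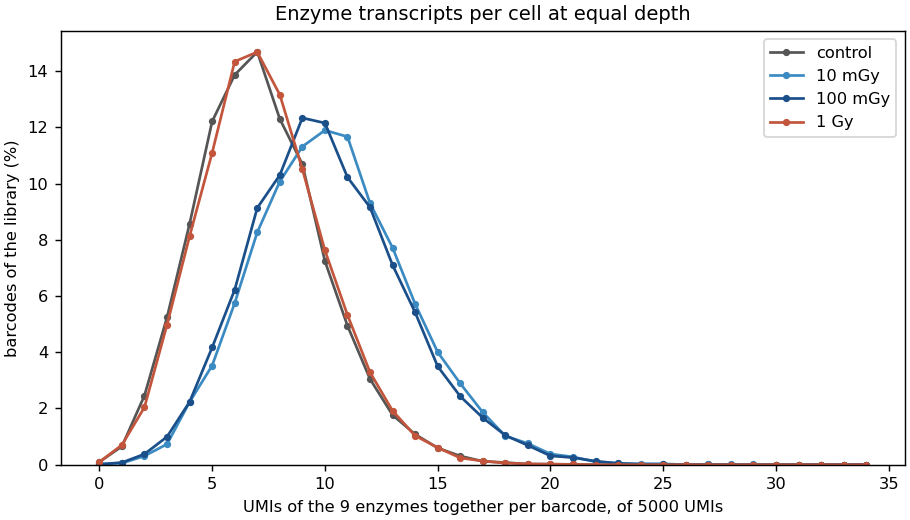
UMIs of the 9 enzymes together per barcode, each barcode thinned to 5000 UMIs (horizontal axis), against the percent of the library's barcodes (vertical axis). The control and 1 Gy curves peak at 7 UMIs, and the 10 mGy and 100 mGy curves are displaced to the right as a whole and have a single peak.

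For single enzymes, the share of thinned barcodes with at least 1 UMI of GPX4 was 70.6% in the control, 87.1% after 10 mGy, 82.8% after 100 mGy and 74.2% after 1 Gy, and for PRDX5 it was 56.0%, 75.8%, 74.1% and 57.5%. Before thinning, and over all barcodes with those under 5000 UMIs included, the shares for GPX4 were 86.4%, 82.5%, 80.7% and 80.7%, with the deepest library first. These shares differ from the thinned ones both in depth and in the barcodes kept, and the part of each was not tested. For CAT the thinned share was 10.9%, 10.5%, 10.5% and 10.7%, so the 4 libraries could hardly be told apart. No cell type that lacks these enzymes was present to measure free RNA in droplets, so these shares are not counts of expressing cells. The variance of UMIs over their mean, which is near 1 where cells differ by counting alone, was 1.07 for SOD2 in the control, 1.25 after 10 mGy, 1.12 after 100 mGy and 1.09 after 1 Gy, beside a median of 1.04 to 1.05 over 1779 genes of at least 100 CPM. SOD2 had the highest value of the 9 enzymes in each of the 4 libraries, by a small margin after 100 mGy, where GPX4 was at 1.11. Pairs of enzymes were barely related across cells, with correlations within single libraries of -0.0164 to 0.0358 over the 36 pairs at 5000 UMIs and -0.0200 to 0.0642 at 10000 UMIs, and in counts this sparse such values are no finding.

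SOD2 is also a textbook target of NF-kB, the transcription factor of inflammatory signalling, and barcodes with more SOD2 UMIs were set beside the rest. The cut was the lowest UMI count that at most 5% of thinned barcodes reached, which was 2 UMIs in the control (443 barcodes) and after 1 Gy (528), and 3 UMIs after 10 mGy (233) and 100 mGy (116). These were 4.89% of barcodes in the control, 1.85% after 10 mGy, 0.813% after 100 mGy and 4.58% after 1 Gy, where counting alone (a Poisson count of the same mean) gives 4.50%, 0.975%, 0.520% and 4.08%. In the control and after 1 Gy counting alone thus gives nearly the whole share past the cut, and these barcodes are not called a class of cells. The summed UMIs of 17 other NF-kB targets were higher past the cut in all 4 libraries, 1.27-fold (1.19 to 1.34) in the control, 2.13-fold (1.98 to 2.28) after 10 mGy, 1.56-fold (1.38 to 1.76) after 100 mGy and 1.38-fold (1.31 to 1.45) after 1 Gy. Single targets were uneven, with an interval above 1 for 7 of 17 in the control, 12 after 10 mGy, 6 after 100 mGy and 9 after 1 Gy, and an interval including 1 for the rest. The share of all genes with such an interval was not computed, so these counts cannot be called particular to NF-kB targets. With a single cut at 2 UMIs, chosen after these values were seen, the list ratio was 1.39 (1.33 to 1.46) after 10 mGy with 961 barcodes and 1.31 (1.24 to 1.38) after 100 mGy with 738, with an interval above 1 for 10 and 9 of the 17 targets, so the larger ratios at low dose go with the higher cut. Single genes are therefore given at this common cut. It was passed by 7.65% of barcodes after 10 mGy and 5.17% after 100 mGy, where counting alone gives 7.03% and 4.69%. Counting alone thus gives nearly the whole share there too, and those barcodes are likewise not called a class of cells. CXCL8, the neutrophil-attracting chemokine, stood 2.04, 2.07, 1.56 and 2.42 times higher, and its 10 mGy value did not stand apart (3.90 at the cut of 3 UMIs). The adhesion molecule ICAM1 stood 1.36, 1.31, 1.48 and 1.62 times higher. The monocyte-attracting chemokine CCL2 was at 1.80-fold after 10 mGy, 1.63-fold after 100 mGy and 1.80-fold after 1 Gy, and in the control its interval included 1 (0.924 to 1.52). CXCL1, another chemokine, was at 1.03-fold (0.814 to 1.29) in the control and 2.04-fold (1.77 to 2.35) after 10 mGy. It was at 1.45-fold (1.19 to 1.75) after 100 mGy and 1.19-fold (0.964 to 1.46) after 1 Gy. NFKB1, a subunit of the factor itself, had an interval including 1 in every library at either cut. The other 8 enzymes together were at 1.00-fold (0.967 to 1.04), 1.03-fold (1.01 to 1.05), 1.01-fold (0.983 to 1.03) and 1.03-fold (0.997 to 1.06) in the same order. SOD1 was above 1 after 1 Gy, at 1.08-fold (1.02 to 1.15), and after 10 mGy SOD1 and PRDX5 had intervals above 1 at the cut of 3 UMIs, 1.12-fold (1.03 to 1.21) and 1.13-fold (1.01 to 1.25), but not at the common cut. SOD2 itself chose these barcodes, so its level in them is no finding. The intervals cover only the counting error of UMIs within 1 library. They leave out variation between cells, so they are too narrow for a difference between groups of cells, and they say nothing of differences between doses.

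Over whole libraries most NF-kB targets that could be compared were lower at the low doses. Of 11 targets that passed the minimum, 1 was over 1.2-fold higher and 8 lower after 10 mGy, 1 higher and 9 lower after 100 mGy, and none either way after 1 Gy, with a median log2 ratio of -0.60, -0.71 and -0.034. Over all genes 53% and 58.9% were lower at the low doses, with medians of -0.30 and -0.38, and against the median gene the list medians were -0.30 and -0.33. With log2 ratios centred on genes of like length, 1 target was higher and 8 lower after 10 mGy, and 0 higher and 8 lower after 100 mGy. The share of all genes past 1.2-fold on that scale is not given here. The higher gene was CCL2, at 27.4 CPM in the control, 42.0 after 10 mGy, 39.8 after 100 mGy and 26.1 after 1 Gy, and against genes of like length its log2 ratio was 0.27 after 10 mGy and 0.20 after 100 mGy. BIRC3, an inhibitor of apoptosis, was at 36.9, 10.2, 13.4 and 32.3 CPM in the same order. TNFAIP3, a feedback inhibitor of NF-kB, was at 18.5, 10.9, 7.88 and 19.4 CPM, and CXCL8 was at 39.5, 22.2, 17.7 and 33.1 CPM.

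Barcodes with few UMIs held more of some enzymes. In shallow barcodes SOD1 was 1.23-fold (1.18 to 1.29), 1.35-fold (1.32 to 1.38), 1.36-fold (1.31 to 1.40) and 1.41-fold (1.36 to 1.46) of its level in the other barcodes in the control, after 10 mGy, after 100 mGy and after 1 Gy. PRDX6 was 1.30-fold (1.22 to 1.39), 1.12-fold (1.08 to 1.15), 1.14-fold (1.091 to 1.198) and 1.48-fold (1.40 to 1.56). PRDX5 went the other way in 3 libraries, at 0.904-fold (0.836 to 0.975) in the control, 0.885-fold (0.857 to 0.914) after 10 mGy and 0.863-fold (0.819 to 0.909) after 100 mGy, but was 1.09-fold (1.02 to 1.16) after 1 Gy. Leaving these barcodes out changed no count of enzymes past 1.2-fold at any dose.

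The same families and the enzymes that recharge them were described by their counts. These counts stand beside those of all genes, 15.4% higher and 53% lower after 10 mGy and 14% and 58.9% after 100 mGy, and nothing is read from a list whose shares are near these. The shares hold on the CPM scale only. Centring on genes of like length sets the median of all genes to 0. Shares of all genes past 1.2-fold on that or other scales are not given here, so nothing is read from list counts on those scales. Of 9 further family members, PRDX1, CCS and GPX8 passed the minimum, and PRDX1 and CCS were over 1.2-fold higher at both low doses. PRDX1, the abundant cytosolic peroxiredoxin, was at 502 CPM in the control, 883 after 10 mGy, 957 after 100 mGy and 518 after 1 Gy. Its ratio to the control was 1.76 (1.75 to 1.77) after 10 mGy and 1.91 (1.89 to 1.92) after 100 mGy. SOD3, GPX2, GPX5 and GPX6 had between 0 and 9 UMIs per library.

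In the thioredoxin cycle, which feeds most peroxiredoxins, 3 of 7 genes were over 1.2-fold higher and 4 lower after 10 mGy, and 2 higher and 3 lower after 100 mGy. Centred on genes of like exonic length these counts were 1 and 3, then 1 and 2. With median ratio scaling they were 3 and 3, then 4 and 2, and unscaled they were 0 and 4, then 0 and 5. Thioredoxin itself (TXN) was at 1103 CPM in the control, 1679 after 10 mGy, 1593 after 100 mGy and 993 after 1 Gy, while its reductase TXNRD1 was at 550, 439, 415 and 534 CPM. The cytosolic carrier and its reductase lay on opposite sides of the control on the CPM scale, though both lay above genes of like length at the low doses by less than 1.2-fold (TXNRD1 log2 ratio 0.11 and 0.12, TXN 0.26 and 0.19). SRXN1, which restores over-oxidized peroxiredoxins, was at 39.1, 24.7, 22.8 and 40.7 CPM. SESN2, a stress-induced sestrin, was at 17.5, 10.4, 10.1 and 21.0 CPM. In mitochondria, where PRDX3 works, thioredoxin TXN2 was at 112, 149, 153 and 115 CPM and the reductase TXNRD2 at 42.5, 53.1, 46.0 and 41.2 CPM. Against genes of like length TXN2 had a log2 ratio of only 0.066 after 10 mGy and 0.11 after 100 mGy, and TXNRD2 of 0.81 and 0.71. TXNRD2 was placed by a union of 8373 exonic bases, which can exceed the length of any single transcript.

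In the glutathione cycle 3 of 9 genes were higher and 3 lower on the CPM scale at both low doses, and 4 higher and 2 lower at both when centred on genes of like length. With median ratio scaling 5 were higher and 2 lower after 10 mGy, and 6 higher and 2 lower after 100 mGy. Unscaled, 0 were higher at either dose, and 6 were lower after 10 mGy and 8 after 100 mGy. The glutaredoxin GLRX2 was at 87.1 CPM in the control, 119 after 10 mGy, 128 after 100 mGy and 80.8 after 1 Gy. The 2 subunits of the enzyme that starts glutathione synthesis were lower on the CPM scale, GCLM at 180, 114, 112 and 182 CPM and GCLC at 19.6, 12.7, 11.4 and 18.6 CPM. Against genes of like length GCLM had log2 ratios of -0.29 after 10 mGy and -0.24 after 100 mGy and GCLC of -0.13 and -0.19, so that only GCLM after 10 mGy stayed past 1.2-fold. Glutathione reductase (GSR), which regenerates glutathione, was at 33.1, 25.7, 22.2 and 33.9 CPM. Its log2 ratio stayed past 1.2-fold against genes of like length, at -0.27 after 10 mGy and -0.42 after 100 mGy, and was short of it against the median gene, at -0.068 and -0.19.

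Among 8 genes of NADPH supply, TALDO1 was the only gene over 1.2-fold higher after 10 mGy and TKT the only gene lower on the CPM scale. After 100 mGy none was higher and 2 were lower. With median ratio scaling 5 were higher and 0 lower after 10 mGy, and 2 higher and 0 lower after 100 mGy. Unscaled, 0 were higher at either dose, and 7 were lower after 10 mGy and 8 after 100 mGy. Against genes of like length no gene of this list was lower at either dose, 2 were higher after 10 mGy and 0 after 100 mGy, and the log2 ratio of TKT turned from -0.31 and -0.48 to 0.23 and 0.18. Of 7 genes that insert selenocysteine, as GPX4 requires, 1 was higher and 4 were lower after 10 mGy, and 1 higher and 5 lower after 100 mGy, beside 53% and 58.9% of all genes lower. Centred on genes of like length, 2 were higher and 1 lower after 10 mGy, and 2 higher and 3 lower after 100 mGy. SECISBP2, which binds the selenocysteine element of the message, was at 38.2, 24.6, 20.2 and 36.3 CPM, but against genes of like length its log2 ratios of -0.097 and -0.26 were short of 1.2-fold at both low doses. Of 11 other selenoproteins 3 were higher and 2 lower after 10 mGy and 4 higher and 3 lower after 100 mGy, with SELENOM at 131, 171, 194 and 130 CPM and SELENOI at 29.7, 17.2, 14.3 and 29.3 CPM. These counts depend on the scale. After 10 mGy median ratio scaling gave 8 higher and 1 lower, and unscaled UMIs per barcode gave 0 higher and 8 lower. Of 9 genes of peroxisome import, which carries catalase, 2 were higher and 4 lower after 10 mGy and 1 higher and 4 lower after 100 mGy, with PEX26 at 36.0, 19.2, 19.1 and 39.9 CPM. Centred on genes of like length, 3 were higher and 2 lower after 10 mGy and 2 higher and 1 lower after 100 mGy, and the log2 ratio of PEX26 moved from -0.91 and -0.92 to -0.23 and -0.11, short of 1.2-fold at both.

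Among genes that make superoxide or peroxide, ERO1A, an oxidase of the endoplasmic reticulum that yields hydrogen peroxide, was at 49.5, 30.8, 26.3 and 47.5 CPM. Against genes of like length its log2 ratio was -0.20 after 10 mGy, short of 1.2-fold, and -0.32 after 100 mGy. Of 5 regulators none was higher and 4 were lower at both low doses, and NFE2L2, the factor NRF2 that drives many antioxidant genes, was the exception, with a log2 ratio of 0.04 after 10 mGy and 0.14 after 100 mGy. When centred on genes of like length, 1 regulator was higher and 2 were lower at both. After 1 Gy no gene named here from these lists, the NF-kB targets included, was past 1.2-fold on the CPM scale. CXCL8 was close, at a log2 ratio of -0.26, and lay past it under median ratio scaling (-0.29) and against genes of like length (-0.27), and SESN2 was just short at 0.26. Without low-UMI barcodes 1 gene of the thioredoxin cycle was higher, and with UMIs scaled per barcode 1 NF-kB target and 1 gene of peroxisome import were lower.

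**Figure D5:**
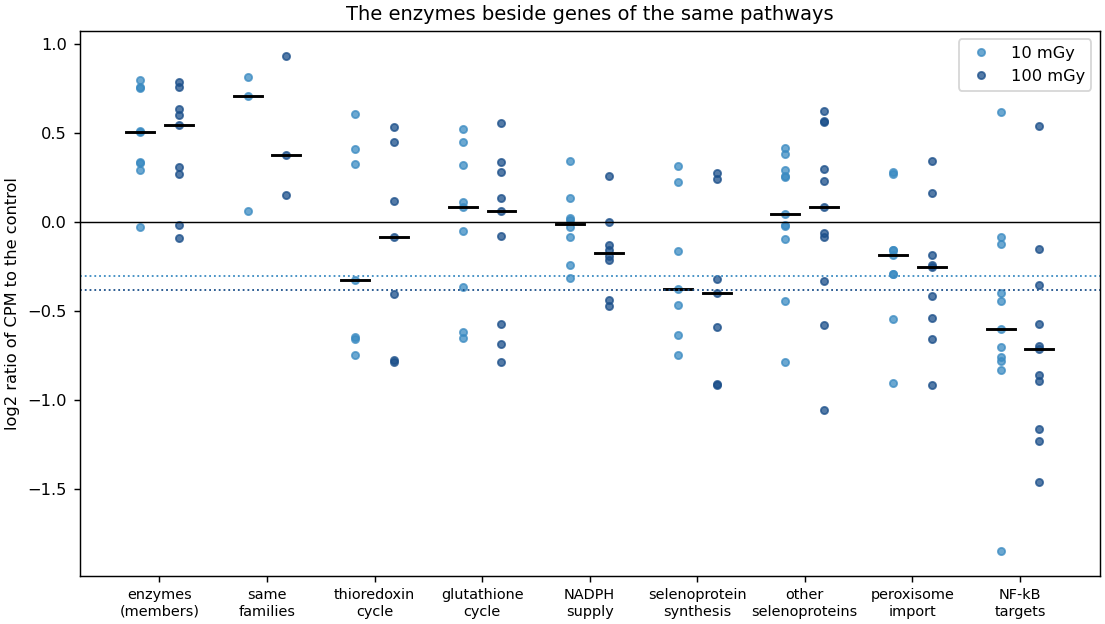
Log2 ratio of CPM to the control after 10 mGy and 100 mGy for the 9 enzymes and for the genes of 8 related lists that passed 10 CPM, 1 point per gene, with the list median (black bar) and the median of all genes (dotted lines, -0.30 and -0.38). The enzymes and their families lie mostly above 0, the cycles that recharge them are split, and the NF-kB targets lie mostly below the dotted lines.

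The genes whose 3 log2 ratios lay nearest to each enzyme were sought among 1779 genes of at least 100 CPM, by the largest of the 3 absolute differences. PRDX4 was nearest to RPL19 (0.02), a ribosomal protein gene, PRDX6 to VKORC1 (0.0092), PRDX5 to COX14 (0.05) and PRDX2 to H3F3A (0.05). GPX4 was nearest to BEX3 (0.04), PRDX3 to FXYD5 (0.02) and SOD1 to GAS5 (0.02). SOD2 and CAT were nearest to MMP24OS (0.07) and KDELR2 (0.02). SOD2 was the farthest of the 9 from its nearest gene.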

How the data were processed

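BEAS-2B cells of 4 groups were profiled with a droplet kit for 3' ends, in 1 library per dose. The deposited files hold UMI counts per gene and barcode, which the authors made with Cell Ranger 7.0.1 per the file headers and did not normalize. The submitters' processing notes also name STAR and GRCh37. Which annotation was used, and whether introns were counted, is not given in the sources used here. Genome positions and exonic lengths came from GENCODE 29 on GRCh38 by gene identifier (34616 of 36601, or 94.6%, matched), and promoters from RefSeq on GRCh38.p14.

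All barcodes were summed, and CPM divides the sum by the UMIs of the library. Ratios have exact binomial intervals and levels exact Poisson intervals, both at 95%. A gene was tested when it averaged 10 CPM or more. Called means over 1.2-fold, with no p-value. Per-cell values used barcodes thinned to 5000 UMIs. Doublets were kept and not called. Named genes were the 10 enzymes, PRDX1, TXN, TXNRD1 and GSR, and the nearest gene to each enzyme. From each list up to 4 genes were added, those with the largest absolute mean log2 ratio over the low doses, in either direction. CCL2, CXCL1, ICAM1, NFE2L2, TXNRD2, SOD3, GPX2, GPX5 and GPX6 were named in addition after their values were seen. Some results under this rule are not reported here. The enzymes and lists were chosen with earlier results of these data known. Alternatives were 3 other scalings, unscaled UMIs, 3 selections of barcodes, thinning, centring on 10 bins of exonic length, minimum levels of 1 CPM and 100 CPM, 1.5-fold as the threshold and, added after the values were seen, a single cut on SOD2 UMIs. Ratios and thinning were tested on simulated data. Python 3.11.15, numpy 2.4.6, scipy 1.17.1 and pandas 2.3.3 were used.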

Additional observations from a re-analysis of the deposited data

How the results depend on the processing

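On the CPM scale 8 of 9 enzymes (10 mGy) and 7 of 9 (100 mGy) were over 1.2-fold above the control. With UMIs per barcode left unscaled these counts were 1 and 0, the counts lower were 1, 4 and 9 at the 3 doses in rising order (0 each as CPM), and 2 of 9 in place of 7 had both low doses above the control and 1 Gy. The unscaled median log2 ratio over all genes was -0.83, -1.03 and -0.47 at these doses, itself more than 1.2-fold lower at each. The unscaled counts are therefore not read as a result about the enzymes. Unscaled, 10 log2 ratios that had been past 1.2-fold changed direction: SOD1 -0.24 and -0.37, PRDX3 -0.20 and -0.34, PRDX4 -0.022 and -0.0099 and PRDX6 -0.020 and -0.043 at 10 and 100 mGy, SOD2 -0.19 at 10 mGy and GPX4 -0.10 at 100 mGy. Barcodes of the control hold more UMIs, and whether cells or libraries differ in this was not tested. Centred on genes of like exonic length, 2 did so, both of SOD1, at 10 mGy (-0.053) and 100 mGy (-0.067). None did so under the other 7 settings. Among values short of 1.2-fold, CAT at both low doses and SOD2 at 100 mGy turned upwards under median ratio scaling, centred on genes of like exonic length and without ribosomal protein and mitochondrially encoded genes, SOD2 at 100 mGy also after thinning (0.033), and PRDX2 (0.020) and PRDX6 (0.036) at 1 Gy did so with UMIs scaled per barcode. PRDX3 at 1 Gy turned downwards under median ratio scaling (-0.0086), and SOD1, GPX4, PRDX3 and PRDX5 at 1 Gy did so unscaled. A threshold of 1.5-fold gave 3 and 4 enzymes higher, and the share of all genes past it is not given here. At 1 Gy 1 enzyme, PRDX4, was over 1.2-fold lower under median ratio scaling (1) and after thinning (1), and 0 otherwise among scaled values. No paired analysis was possible because each dose has 1 library. Depth limits CAT most, and the missing replicates limit all values.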
